A study of Mus musculus with 9 samples.

Results

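Pulmonary surfactant is a film of lipid and protein that lowers surface tension in the alveoli and keeps them from collapsing. Alveolar type 2 cells make it, pack it into lysosome-related organelles called lamellar bodies, and secrete it by exocytosis. The 8 genes described here are 4 surfactant proteins (Sftpa1, Sftpb, Sftpc and Sftpd), the lamellar body lipid transporter Abca3, the lamellar body membrane protein Lamp3, the protease Napsa, which takes part in maturing the proproteins of surfactant proteins B and C, and Lpcat1, an acyltransferase that makes the saturated phosphatidylcholine of surfactant. They were taken by name through the RefSeq transcript that each array probe is annotated to. All 8 were measured, by 10 of the 56605 non-control probes on the array, with 2 probes each for Sftpb and Napsa and 1 for each of the others.

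RNA came from the whole lung of 9 mice with TRF1flox/flox alleles, 1 one-colour array per lung. Terf1 encodes TRF1, a protein of the shelterin complex that coats telomeres. Tamoxifen was begun in every mouse at the age of 8 weeks, and the weekly dose was 250 mg/kg. The 3 control lungs were TRF1flox/flox without cre and were taken from mice aged 11 months, after 9 months of the drug. The 3 lungs called 3-month cre were SPC-cre TRF1flox/flox, from mice aged 5 months that had received tamoxifen for 3 months. The 3 called 9-month cre were SPC-cre TRF1flox/flox as well, from mice that, like the controls, were aged 11 months and had received it for 9 months. The cre is named for the promoter of surfactant protein C, which is 1 of the genes measured here, so that deletion is directed to type 2 cells while the array reads the whole lung. The 3-month cre lungs had no control of their own age, so that time on tamoxifen and age cannot be told apart in any comparison that includes them.

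A level below is the log2 processed signal of a probe relative to the 75th percentile of its own array, which ranged from 958 to 1430 intensity units against a median local background of 28 to 35. All 10 probes were well above background on all 9 arrays and none was saturated; the dimmest value among them, for Lpcat1 in a 9-month cre lung, was 1131 units. Probes differ in how brightly they hybridise, so levels are compared between arrays for the same probe. Expression was compared with limma over 16843 genes in 1 fit of all 9 arrays, errors are standard errors (SE) of the log2 fold change from 3 arrays a group, and a gene was called when its Benjamini-Hochberg adjusted p was under 0.05. The arrays lay on 2 slides, each scanned in 1 session. Slide 1 held the 3 controls and replicate 1 of 3-month cre, and slide 2 held replicates 2 and 3 of 3-month cre and all 9-month cre lungs. By Xist and Y-linked probes, the 3 controls were male, as were replicate 2 of 3-month cre and replicate 1 of 9-month cre, and the other 4 lungs were female.

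Terf1, the targeted gene, differed from control by -0.55 ± 0.19 on the log2 scale in 3-month cre and by -0.52 ± 0.19 in 9-month cre, with adjusted p of 0.190 and 0.131. The place of its probe relative to the floxed part is not known here. All 7 lung markers examined, among them Ager and Scgb1a1, were well above background on all 9 arrays. Of 8 markers of other tissues, the heart muscle genes Myh6 and Myl7 were too, and so were Nppa, Alb and Cyp2e1. Ttr was well above background on 1 array, and the islet gene Ins2 and the kidney gene Umod on 0.

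The genes lie on 6 chromosomes (GRCm38). Sftpa1 (chromosome 14, 41131788 to 41136373) and Sftpd (chromosome 14, 41172212 to 41185198), both collagen-containing lectins of innate defence, lie close together, and Sftpc is on the same chromosome (70520941 to 70524081). Sftpb is on chromosome 6 (72304610 to 72314373), Napsa on chromosome 7 (44572445 to 44586846), Lpcat1 on chromosome 13 (73467231 to 73516420), Lamp3 on chromosome 16 (19653381 to 19706365) and Abca3 on chromosome 17 (24351921 to 24410204). RefSeq promoter sequences were at hand for 5 of the 8 (GRCm38.p6). Except for Abca3, they ran from 250 bases before to 50 after the start of the gene given here. The Abca3 window, 24351773 to 24352072, has the start given here further inside. In mammals NKX2-1, FOXA1 and FOXA2, C/EBP alpha and the ETS factor ETV5 are known regulators of type 2 cell genes, and their genes are described below. The 3 promoters printed are those with a match to a core motif of one of these factors: CTCAAG for NKX2-1, TGTTTNC for FOXA, TTNNGCAA for C/EBP or CGGAAG for ETS, searched on both strands. Capitals mark the matches, in the 5′ to 3′ direction of the gene.
Sftpb, chr6:72304360-72304659, plus strand: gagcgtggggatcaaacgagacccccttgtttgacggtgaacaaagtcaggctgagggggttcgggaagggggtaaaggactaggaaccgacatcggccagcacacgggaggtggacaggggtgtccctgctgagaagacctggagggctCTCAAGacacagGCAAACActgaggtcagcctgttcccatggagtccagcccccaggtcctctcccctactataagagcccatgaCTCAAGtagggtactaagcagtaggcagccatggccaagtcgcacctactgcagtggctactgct
Sftpa1, chr14:41131538-41131837, plus strand: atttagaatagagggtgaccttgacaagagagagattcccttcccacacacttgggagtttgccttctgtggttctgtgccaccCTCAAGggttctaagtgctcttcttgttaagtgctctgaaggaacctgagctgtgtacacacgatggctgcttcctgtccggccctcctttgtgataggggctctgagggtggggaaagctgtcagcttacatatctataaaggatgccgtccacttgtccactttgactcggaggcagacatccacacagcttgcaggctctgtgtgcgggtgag
Lamp3, chr16:19706316-19706615, minus strand: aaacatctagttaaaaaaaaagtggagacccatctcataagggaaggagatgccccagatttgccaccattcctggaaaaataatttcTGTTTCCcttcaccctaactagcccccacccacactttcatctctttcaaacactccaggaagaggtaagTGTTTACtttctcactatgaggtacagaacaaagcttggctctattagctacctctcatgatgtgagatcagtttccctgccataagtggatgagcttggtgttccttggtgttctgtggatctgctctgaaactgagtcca
The Sftpb window holds CTCAAG 2 times on the strand shown and TGTTTNC 1 time on the other strand, where it reads GCAAACA; no match overlaps another. The Sftpa1 window holds CTCAAG 1 time and the Lamp3 window holds TGTTTNC 2 times. The windows of Abca3 and Lpcat1 hold none of the 4 motifs, and TTNNGCAA and CGGAAG are in none of the 5. Of 32851 RefSeq promoters of this length, 15.9% hold CTCAAG, 20.5% TGTTTNC, 10.8% TTNNGCAA and 16.9% CGGAAG, so a match by itself is common. The motifs were chosen after the expression values were seen.

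No surfactant gene passed the test in either direction in 9-month cre against control: with limma, 0 of the 8 genes was called, against 6.45% of all genes. At an unadjusted p under 0.05 there were 2, Sftpb and Sftpd, both higher, against 4603 of 16843 genes, a like share. Without a call, Sftpa1, Sftpb, Sftpc and Sftpd were at 1.05 to 1.73 times the control level and Abca3, Lamp3, Napsa and Lpcat1 at 0.705 to 0.899 times it; the sign of Sftpa1 and Sftpc turned with quantile normalization, and that of Sftpa1, Sftpb and Sftpc with slide as a block. The median over the 8 genes was -0.039 on the log2 scale, with 4 higher and 4 lower, and that of all genes was 0.024.

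Sftpb, whose product is indispensable for the surfactant film, had levels of 6.45, 6.03 and 6.01 in the controls, 5.99, 6.92 and 7.001 in 3-month cre and 7.08, 6.91 and 6.86 in 9-month cre on its brighter probe. All 9-month cre lungs were above all controls, and replicate 1 of 3-month cre was with the controls while replicates 2 and 3 were with the 9-month lungs. The fold change in 9-month cre over control was 0.79 ± 0.26 on the log2 scale, with a 95% interval of 1.14-fold to 2.63-fold and an adjusted p of 0.101. Without replicate 1 of 3-month cre, which is in neither of the groups compared but enters the common estimate of spread, the same fold change had an adjusted p of 0.0329 and Sftpb was called. With slide as a block the difference was -0.18, and the dimmer Sftpb probe, described below, was at -0.41.

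Sftpd had levels of 7.18, 6.88 and 7.14 in the controls, 7.14, 7.50 and 7.67 in 3-month cre and 7.82, 7.57 and 7.39 in 9-month cre. Its 9-month cre lungs were again all above the controls, by 0.53 ± 0.17 on the log2 scale (95% interval 1.09-fold to 1.90-fold, adjusted p = 0.0996 in limma). Sftpc, the gene whose promoter names the cre, encodes a small hydrophobic surfactant protein. The labels do not say whether the cre construct holds Sftpc sequence that this probe could read, so what its level means in cre against control lungs is uncertain to that extent. It had levels of 8.20, 8.07 and 7.98 in the controls, 7.89, 8.31 and 8.47 in 3-month cre and 8.60, 8.35 and 8.31 in 9-month cre. The 9-month cre lungs did not overlap the controls here either, and the difference was 0.34 ± 0.16 on the log2 scale (95% interval 0.973-fold to 1.64-fold, adjusted p = 0.222 in limma). With quantile normalization the Sftpc difference was -0.033 and with the authors' deposited values it was -0.011, so its direction turned with the scaling. Sftpd was at 0.19 under each of these, and Sftpb at 0.56 and 0.55.

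For Sftpa1 the levels were 6.67, 6.62 and 7.02 in the controls, 6.99, 7.38 and 7.25 in 3-month cre and 7.11, 6.98 and 6.45 in 9-month cre. The 3 groups overlapped, and 9-month cre differed from control by 0.076 ± 0.20 on the log2 scale (95% interval 0.766-fold to 1.45-fold, adjusted p = 0.830 in limma).

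**Figure D1:**
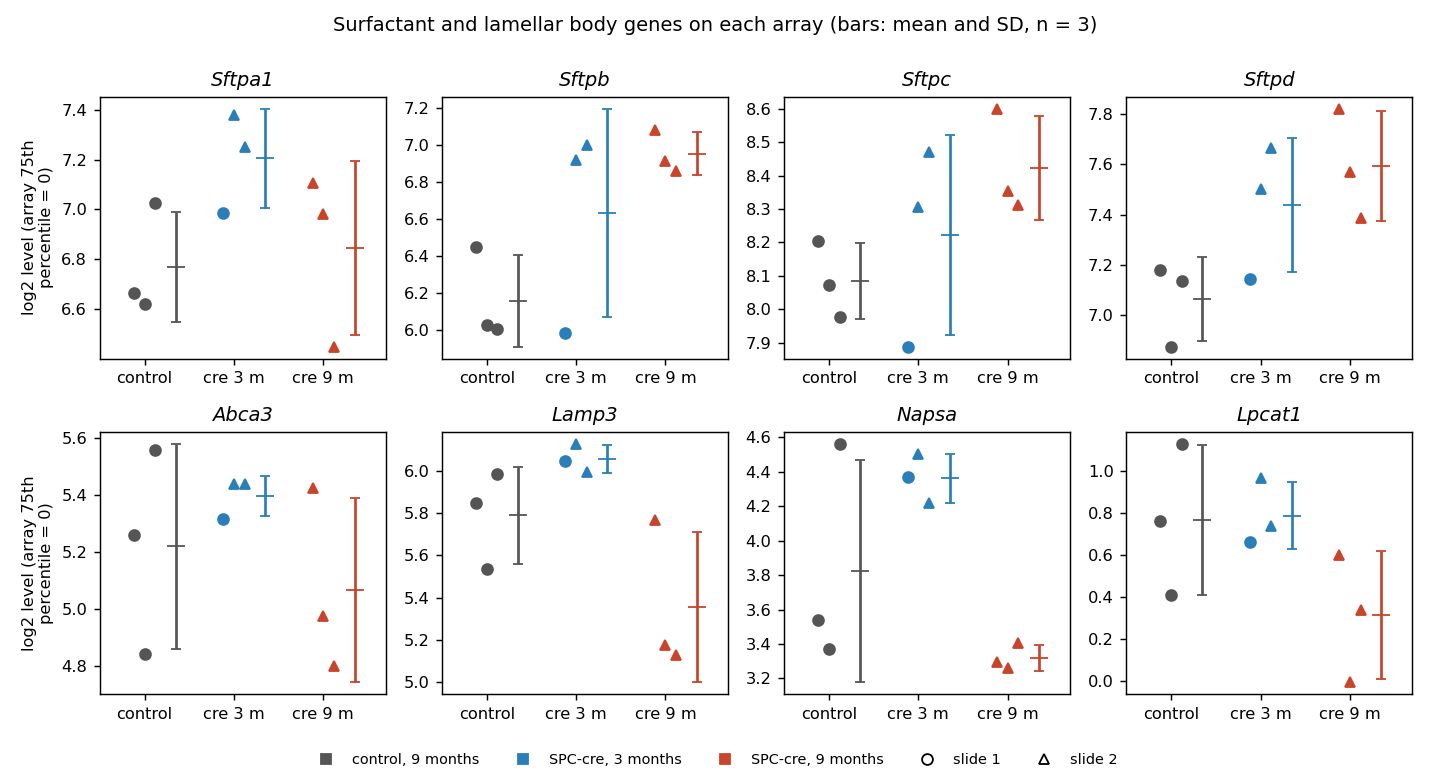
Log2 levels of the 8 genes on each array (vertical axes, relative to the 75th percentile of the array) by group, with circles for slide 1, triangles for slide 2 and bars for the mean and SD of 3 arrays. Sftpb, Sftpc and Sftpd are higher on every slide 2 array than on every slide 1 array, and Lamp3, Napsa and Lpcat1 are lower in all 9-month cre than in all 3-month cre lungs.

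The lamellar body genes had their lowest group means in the 9-month cre lungs. Lamp3, a lysosomal membrane glycoprotein found in lamellar bodies and also in mature dendritic cells, had levels of 5.85, 5.54 and 5.98 in the controls, 6.05, 6.13 and 5.99 in 3-month cre and 5.77, 5.18 and 5.13 in 9-month cre. Control and 9-month cre overlapped, and their difference was -0.43 ± 0.19 on the log2 scale (95% interval 0.547-fold to 1.00-fold, adjusted p = 0.184 in limma). Lpcat1 had levels of 0.76, 0.41 and 1.13 in the controls, 0.66, 0.96 and 0.74 in 3-month cre and 0.60, -0.0027 and 0.34 in 9-month cre. Its 9-month cre levels differed from control by -0.45 ± 0.21 on the log2 scale (95% interval 0.520-fold to 1.03-fold, adjusted p = 0.210 in limma), with overlap.

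Napsa showed the widest spread among controls. On its brighter probe it had levels of 3.54, 3.37 and 4.56 in the controls, 4.37, 4.50 and 4.22 in 3-month cre and 3.29, 3.26 and 3.40 in 9-month cre. Control replicate 3 was with the 3-month cre lungs and the other 2 controls were close to the 9-month cre lungs, which ranged from 3.26 to 3.40. The difference of 9-month cre from control was -0.50 ± 0.28 on the log2 scale (95% interval 0.454-fold to 1.09-fold, adjusted p = 0.270 in limma), and it was -0.14 without control replicate 3. Abca3, which moves phospholipid into the lamellar body, had levels of 5.26, 4.84 and 5.56 in the controls, 5.32, 5.44 and 5.44 in 3-month cre and 5.42, 4.97 and 4.80 in 9-month cre. The controls spanned most of that range, and the 9-month cre difference was -0.15 ± 0.21 on the log2 scale (95% interval 0.643-fold to 1.26-fold, adjusted p = 0.660 in limma).

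Arrays of the 2 groups did not overlap for 3 of the 8 genes (Sftpb, Sftpc and Sftpd) in 9-month cre against control, against 32.5% of all genes tested. In a bulk sample, fewer cells of a type and less RNA per cell cannot be told apart.

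After 3 months all 8 genes had positive differences from control, with 0 called and 0 at an unadjusted p under 0.05 in limma, where 0.451% of all genes were called and 3155 of 16843 were under that p. Of all genes 57.6% had positive differences. The sign of Sftpc, Abca3 and Lpcat1 turned with quantile normalization and the deposited values, and that of Sftpb, Sftpc and Lpcat1 with slide as a block. The median of the 8 was 0.32 on the log2 scale and that of all genes 0.054. Napsa had the largest difference, 0.54 ± 0.28 (95% interval 0.935-fold to 2.26-fold, adjusted p = 0.330), followed by Sftpb with 0.47 ± 0.26, Sftpa1 with 0.43 ± 0.20, Sftpd with 0.37 ± 0.17, Lamp3 with 0.27 ± 0.19, Abca3 with 0.18 ± 0.21 and Sftpc with 0.14 ± 0.16. Lpcat1 differed by 0.021 ± 0.21. Neighbours in this order differed by less than their SE. Lamp3 was the 1 gene whose arrays did not overlap, against 31% of all genes. Without control replicate 3 the Napsa difference was 0.91, with an adjusted p of 0.0378.

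Between the 2 cre groups the 4 lamellar body genes had lower means in the 9-month lungs, without a call: with limma 0 of 8 genes was called, against 4.99% of all genes, and 2 had an unadjusted p under 0.05, against 4839 of all 16843, a like share. Napsa differed by -1.04 ± 0.28 on the log2 scale (95% interval 0.312-fold to 0.754-fold, adjusted p = 0.0620) and Lamp3 by -0.70 ± 0.19 (95% interval 0.455-fold to 0.832-fold, adjusted p = 0.0638). Lpcat1 differed by -0.47 ± 0.21 (adjusted p = 0.185). These were the 3 genes whose arrays did not overlap, against 33.6% of all genes, and in each all 9-month cre lungs were below all 3-month cre lungs. The 8 genes had a median of -0.35, with 3 higher and 5 lower, and all genes a median of -0.028. Sftpa1 differed by -0.36 ± 0.20, Abca3 by -0.33 ± 0.21, Sftpb by 0.32 ± 0.26, Sftpc by 0.20 ± 0.16 and Sftpd by 0.15 ± 0.17, each with overlapping arrays.

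With normexp background correction Napsa (-1.07, adjusted p = 0.0453) and Lamp3 (-0.72, adjusted p = 0.0452) were called between the cre groups. Leaving out single arrays gave Napsa an adjusted p of 0.0170 to 0.178 in limma. It was under 0.05 in 1 case, without control replicate 3, which is in neither group compared. Over the alternatives that kept all arrays it ranged from 0.0385 to 0.201. With all levels set relative to the mean of 12 epithelial markers, Napsa was at -0.59 (adjusted p = 0.201) and Lamp3 at -0.25 (adjusted p = 0.387).

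**Figure D2:**
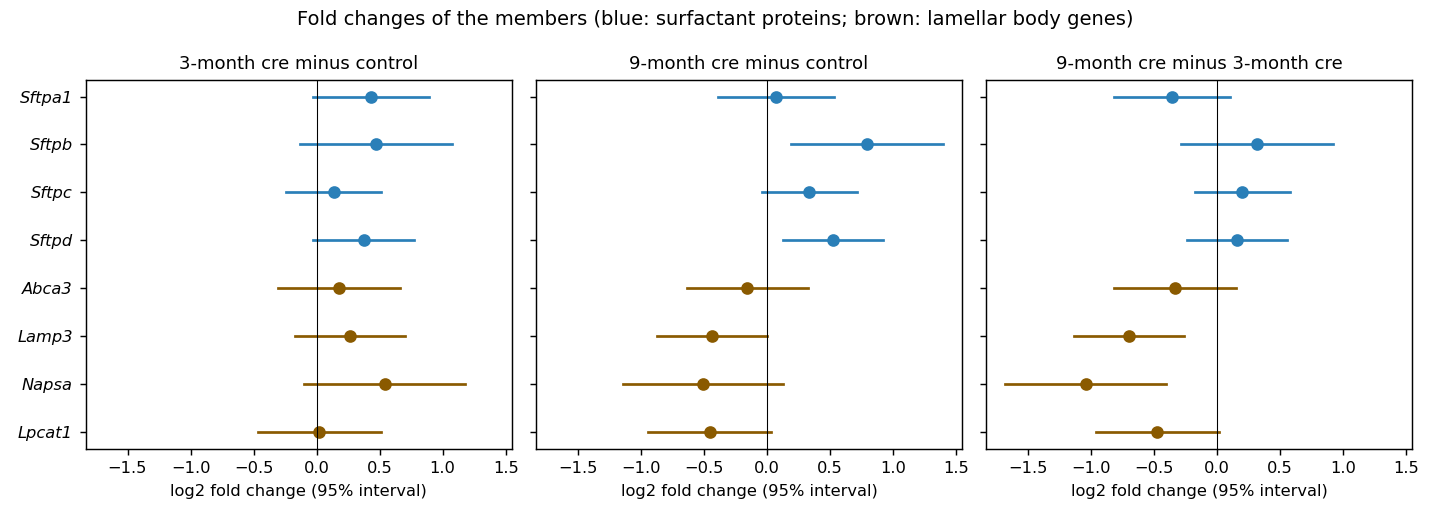
Log2 fold changes of the 8 genes (horizontal axis) with 95% intervals from the fit of all 9 arrays, in 3 panels for the 3 comparisons, surfactant proteins in blue and lamellar body genes in brown. In 9-month cre against control the intervals of Sftpb and Sftpd lie above 0, and between the cre groups those of Lamp3 and Napsa lie below 0.

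The 2 probes of Sftpb, both annotated to the same RefSeq transcript, had differences of opposite sign in 9-month cre against control. The annotation lists 2 transcripts of Sftpb, and the place of each probe in them is not known here. The dimmer probe had levels of 3.41, 3.28 and 3.31 in the controls, 3.47, 3.82 and 3.86 in 3-month cre and 3.103, 3.20 and 2.48 in 9-month cre. All 3-month cre lungs were above and all 9-month cre lungs below all controls. The difference from control was -0.41 ± 0.20 in 9-month cre and 0.38 ± 0.20 in 3-month cre, with adjusted p of 0.257 and 0.292 in limma, and between the cre groups it was -0.79 ± 0.20 with an adjusted p of 0.0534.

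The signal of the brighter Sftpb probe over that of the dimmer one can be read within an array, where a scaling factor of the array cancels. This ratio was 8.23, 6.72 and 6.48 in the controls, 5.70, 8.59 and 8.82 in 3-month cre and 15.8, 13.2 and 20.9 in 9-month cre. Every 9-month cre lung exceeded every other lung, whereas control and 3-month cre overlapped. On average the ratio was 2.30 times that of control and 2.16 times that of 3-month cre in the 9-month lungs. The exact two-sided permutation p was 0.1 in each case, the smallest that 3 arrays against 3 allow, and 0.8 for 3-month cre against control. The ratio also differed by slide inside 3-month cre, with 5.70 on slide 1 and 8.59 and 8.82 on slide 2. In the log2 ratio the 9-month cre lungs were 0.91 above the 3-month cre lungs within slide 2, the 3-month cre lung of slide 1 was at -0.32 relative to the controls there, and with slide as a block the 9-month difference from control was 0.59, where it was 1.20 without it.

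**Figure D3:**
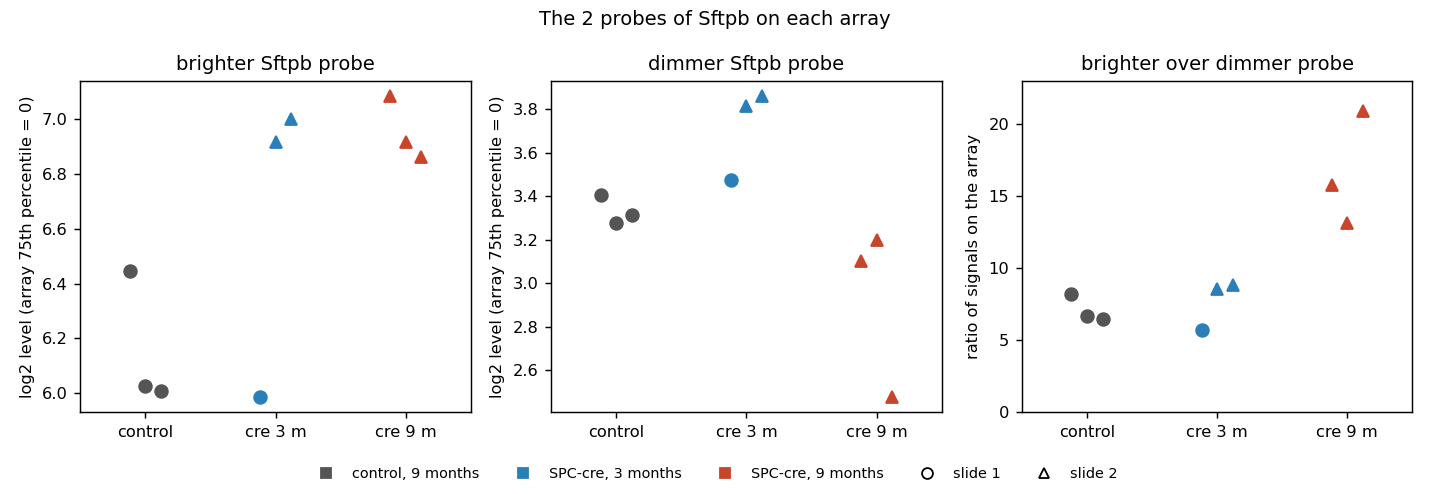
Log2 levels of the brighter and the dimmer Sftpb probe and the ratio of their signals on each array (vertical axes), by group, with circles for slide 1 and triangles for slide 2. The ratio is 13.2 to 20.9 in the 9-month cre lungs and 5.70 to 8.82 in the other 6 lungs.

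The 2 probes of Napsa had the same course (r = 0.99 over 9 arrays). The ratio of their signals was 4.13 to 4.26 in the controls, 3.20 to 3.65 in 3-month cre and 4.20 to 4.86 in 9-month cre. Without overlap, 3-month cre was below control and below 9-month cre, each with an exact two-sided permutation p of 0.1. For 9-month cre against control this p was 0.2. How often probe ratios of other genes separate in this way was not counted, for Sftpb or for Napsa. The dimmer Napsa probe had levels of 1.45, 1.31 and 2.51 in the controls, 2.50, 2.82 and 2.43 in 3-month cre and 1.11, 0.98 and 1.33 in 9-month cre, with all 9-month below all 3-month cre lungs. The difference between the cre groups was -1.44 ± 0.30, with an adjusted p of 0.0386 over 37647 probes in limma, and this was the 1 of 10 probes called there, against 6.35% of all probes. In 9-month cre against control 0 of the 10 probes was called (3.49% of all probes), and in 3-month cre against control 0 (0.526%). The differences of the dimmer Napsa probe there were -0.62 ± 0.30 and 0.83 ± 0.30, with adjusted p of 0.243 and 0.160. The call between the cre groups was not kept with slide as a block (adjusted p = 0.117), where the difference itself was -1.49.

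Slide moved with 3 of the surfactant proteins. For Sftpb on its brighter probe, Sftpc and Sftpd, all 5 arrays of slide 2 were above all 4 arrays of slide 1, whatever the group. Within the 3-month cre group, replicates 2 and 3 on slide 2 exceeded replicate 1 on slide 1 by 0.97, 0.50 and 0.44. For Sftpa1 this difference was 0.33, for the dimmer Sftpb probe 0.36, for Lpcat1 0.19, for Abca3 0.12, for Lamp3 0.016 and for the brighter Napsa probe -0.0062.

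Within slide 2, with 3 lungs of 9-month and 2 of 3-month cre, the difference between the cre groups was -0.0065 for Sftpb, 0.034 for Sftpc and 0.0083 for Sftpd. For the lamellar body genes it stayed close to the value over both slides: -1.04 for Napsa, -0.71 for Lamp3, -0.54 for Lpcat1 and -0.37 for Abca3, with -0.47 for Sftpa1. The dimmer Sftpb probe had -0.91 within slide 2. Within slide 1 the single 3-month cre lung differed from the 3 controls by -0.17 for Sftpb, -0.20 for Sftpc and 0.080 for Sftpd, and by 0.54 for Napsa and 0.26 for Lamp3. Control and 9-month cre lungs shared no slide, so slide and group cannot be told apart in their comparison except through the 3-month cre lungs; with slide as a block, the 9-month difference from control was -0.18 for Sftpb, -0.16 for Sftpc and 0.088 for Sftpd.

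The brightest probes differed between the slides. Of the 200 brightest probes on the array, 105 (52.5%) were higher on all slide 2 than on all slide 1 arrays, against 5.99% of the 37647 probes well above background on all arrays of a group. Inside 3-month cre the slide 2 lungs exceeded the slide 1 lung by a median of 0.28 over these 200 probes (quartiles 0.14 and 0.46) and of 0.037 over all 37647. In 10 bins of all these probes by mean level, the median was 0.031 in the brightest bin and 0.24 in the dimmest. The difference thus did not rise steadily with brightness. The brighter Sftpb, the Sftpc, the Sftpd and the Sftpa1 probe belong to the 200. The part that slide or signal strength has in their levels was not tested.

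**Figure D4:**
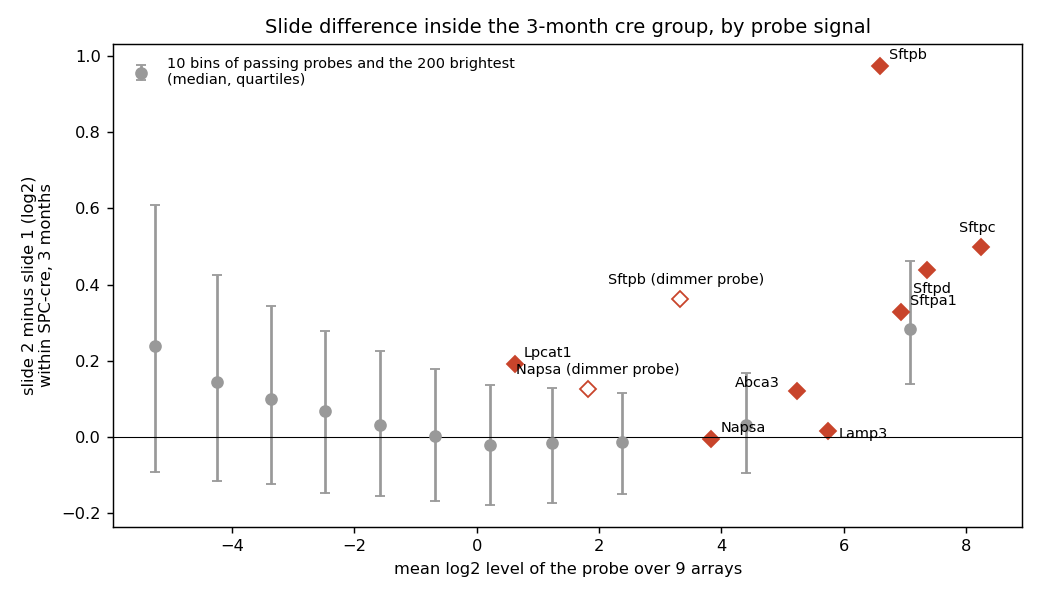
Level in replicates 2 and 3 of 3-month cre (slide 2) minus replicate 1 (slide 1), on the log2 scale (vertical axis), against the mean log2 level of a probe over 9 arrays (horizontal axis). Grey points are medians with quartiles for 10 bins of probes and for the 200 brightest, and red diamonds are probes of the 8 genes; the brighter Sftpb probe is at 0.97, outside the quartiles of the 200 brightest, and Lamp3 and Napsa are near 0.

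Over the 9 arrays Sftpb, Sftpc and Sftpd went together (r = 0.88 to 0.95) and so did Abca3, Lamp3, Napsa and Lpcat1 (r = 0.71 to 0.87). Between these sets r ranged from -0.43 (Sftpc with Napsa) to 0.31 (Sftpd with Abca3). For Sftpa1, r was 0.28 with Sftpc, 0.33 with Sftpb and 0.55 with Sftpd, and 0.44 with Lpcat1, 0.60 with Napsa, 0.66 with Lamp3 and 0.77 with Abca3. The dimmer Sftpb probe had r of 0.80 with Lamp3 and -0.045 with the brighter probe of its own gene. These are descriptions over 9 arrays that share slides, groups and scaling. The genes outside the 8 whose course was most like the mean of the standardised levels were Tysnd1 (r = 0.95), Spag11b (0.94), Tmbim1 (0.94), Smim6 (0.93) and Lrp2 (0.92), each over the same 9 arrays. They are the highest r among all other genes tested, given without a test. Tysnd1 ranged only from 1.88 to 2.07. The mean joins both sets above, which did not go together.

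Other genes of type 2 cells were called lower in the 9-month lungs. Of 17 genes of this list 0 rose and 4 fell in 9-month cre against control, where 3.65% of all genes were called higher and 2.81% lower, and the list median was -0.31. The 4 were Lgi3 (-1.66 ± 0.20, adjusted p = 0.0106 in limma), Egfl6 (-1.45 ± 0.35, 0.0476), the calcium-binding protein gene S100g (-0.97 ± 0.23, 0.0454) and the ETS factor gene Etv5 (-0.87 ± 0.16, 0.0232). Between the cre groups 0 of the 17 rose and 7 fell, where 1.79% of all genes were called higher and 3.2% lower, with a median of -0.62. They included S100g (-1.01 ± 0.23, adjusted p = 0.0480 in limma), Etv5 (-0.91 ± 0.16, 0.0305), Egfl6 (-2.21 ± 0.35, adjusted p = 0.0264), Lyz2 (-2.03 ± 0.35, 0.0306), the lysozyme gene that macrophages also express, and Slc34a2 (-1.99 ± 0.25, 0.0201), the phosphate transporter that takes up phosphate released from surfactant phospholipid.

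Slc34a2 had levels of 0.32, -0.09 and 1.08 in the controls, 1.35, 1.46 and 1.47 in 3-month cre and -0.58, -0.58 and -0.53 in 9-month cre. The 3 groups did not overlap, and 9-month cre differed from control by -1.001 ± 0.25 on the log2 scale, with an adjusted p of 0.0532 in limma. Etv5 had levels of 4.72, 4.35 and 4.90 in the controls, 4.53, 4.88 and 4.68 in 3-month cre and 3.76, 3.79 and 3.81 in 9-month cre, so that the control and 3-month lungs overlapped. After 3 months 0 of the 17 genes was called in limma, with 6 at an unadjusted p under 0.05, a median of 0.29, and 0.368% of all genes called higher and 0.0831% lower. Slc34a2 (0.99 ± 0.25, adjusted p = 0.119), Etv5 (0.039 ± 0.16, 0.916) and S100g (0.034 ± 0.23, 0.954) had these differences there, and Lyz2 one of 1.71 ± 0.35 (0.0863).

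Of 17 regulators of surfactant genes 0 rose and 2 fell in 9-month cre against control: Etv5 and Cebpa, which encodes C/EBP alpha (-0.80 ± 0.17, adjusted p = 0.0361 in limma). In all, 15 of the 17 had negative differences, with a median of -0.34. Of all genes 52.8% had positive differences there, 3.65% were called higher and 2.81% lower. Nkx2-1 was at -0.66 ± 0.24 (adjusted p = 0.119), Foxa1 at -0.60 ± 0.29 (0.213) and Foxa2 at -0.58 ± 0.21 (0.125), without a call; these 3 are given because their motifs are shown above. Between the cre groups 1 regulator rose and 4 fell, where 1.79% of all genes were called higher and 3.2% lower, with a median of -0.40. Cebpa (-0.97 ± 0.17, adjusted p = 0.0309 in limma), Etv5 (-0.91 ± 0.16, 0.0305) and the receptor gene Fgfr2 (-0.80 ± 0.16, 0.0375) fell. Outside the naming rule, and named after their values were seen, were the glucocorticoid receptor gene Nr3c1, which fell (-0.46), and Stat3, which rose (0.53). In 3-month cre against control 0 was called in limma, with 3 at an unadjusted p under 0.05 and a median of 0.039; Fgfr2 was at 0.53 ± 0.16 (adjusted p = 0.145) and Nfatc3 at -0.47 ± 0.13 (0.129).

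Of 22 genes of surfactant lipid synthesis 1 rose and 1 fell in 9-month cre against control, near the 3.65% and 2.81% of all genes, and 20 did not pass; the median was -0.0025. Lpcat2, an acyltransferase related to Lpcat1 and known from inflammatory cells as an enzyme of platelet-activating factor synthesis, rose by 1.55 ± 0.18 (adjusted p = 0.00897 in limma), and Gpam, an enzyme of the first step of glycerolipid synthesis, fell by 0.69 ± 0.12 (0.0205). The second Gpam probe was at 0.0092, so the fall of Gpam rests on 1 of its 2 probes. Between the cre groups Lpcat2 rose by 1.11 ± 0.18 (adjusted p = 0.0272) and the choline phosphotransferase gene Chpt1 fell by 1.16 ± 0.20 (0.0306), with a list median of -0.21. There 1.79% of all genes were called higher and 3.2% lower. In 3-month cre against control 0 of the 22 was called in limma, with 5 at an unadjusted p under 0.05 and a median of 0.15. The largest of these was Scd1, a desaturase gene, at 1.65 ± 0.31 (adjusted p = 0.0742), and Fabp5, a fatty acid binding protein gene, was at 0.90 ± 0.20 (0.107).

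Of 25 measured genes of trafficking to lamellar bodies and of proprotein processing 2 rose and 1 fell in 9-month cre against control, where 3.65% of all genes were called higher and 2.81% lower, with a median of 0.043. Rab38, a small GTPase needed for lamellar bodies of normal size in rodents, fell by 0.61 ± 0.11 (adjusted p = 0.0236 in limma), whereas its close relative Rab32 rose by 0.90 ± 0.15 (0.0195) and the lysosomal carboxypeptidase gene Ctsa by 1.09 ± 0.20 (0.0252). Between the cre groups 0 rose and 2 fell, Rab38 (by 0.88 ± 0.11, adjusted p = 0.0201) and Slc34a2, with a median of -0.019. There 1.79% of all genes were called higher and 3.2% lower. In 3-month cre against control 0 was called in limma, with 7 at an unadjusted p under 0.05, a median of 0.14 and Rab32 at 0.66 ± 0.15 (adjusted p = 0.101).

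Macrophages clear surfactant under the control of GM-CSF. Of 16 genes of this process, 2 rose and 0 fell in 9-month cre against control, with a median of 0.21, where 3.65% of all genes were called higher and 2.81% lower. The 2 that rose encode subunits of the GM-CSF receptor: Csf2rb (1.13 ± 0.23, adjusted p = 0.0300 in limma) and Csf2ra (0.91 ± 0.19, 0.0340). Csf2rb had levels of 1.61, 1.37 and 2.09 in the controls, 2.48, 2.70 and 2.56 in 3-month cre and 2.86, 2.44 and 3.17 in 9-month cre, with all cre lungs above all controls. Between the cre groups 0 rose and 1 fell, the cholesterol-binding lysosomal protein gene Npc2 (-0.91 ± 0.20, adjusted p = 0.0456), with a median of -0.068. There 1.79% of all genes were called higher and 3.2% lower. In 3-month cre against control 0 was called in limma, with 5 at an unadjusted p under 0.05 and a median of 0.37; Npc2 was at 0.82 ± 0.20 (adjusted p = 0.112) and Abcg1, a cholesterol exporter gene, at 0.49 ± 0.11 (0.103).

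**Figure D5:**
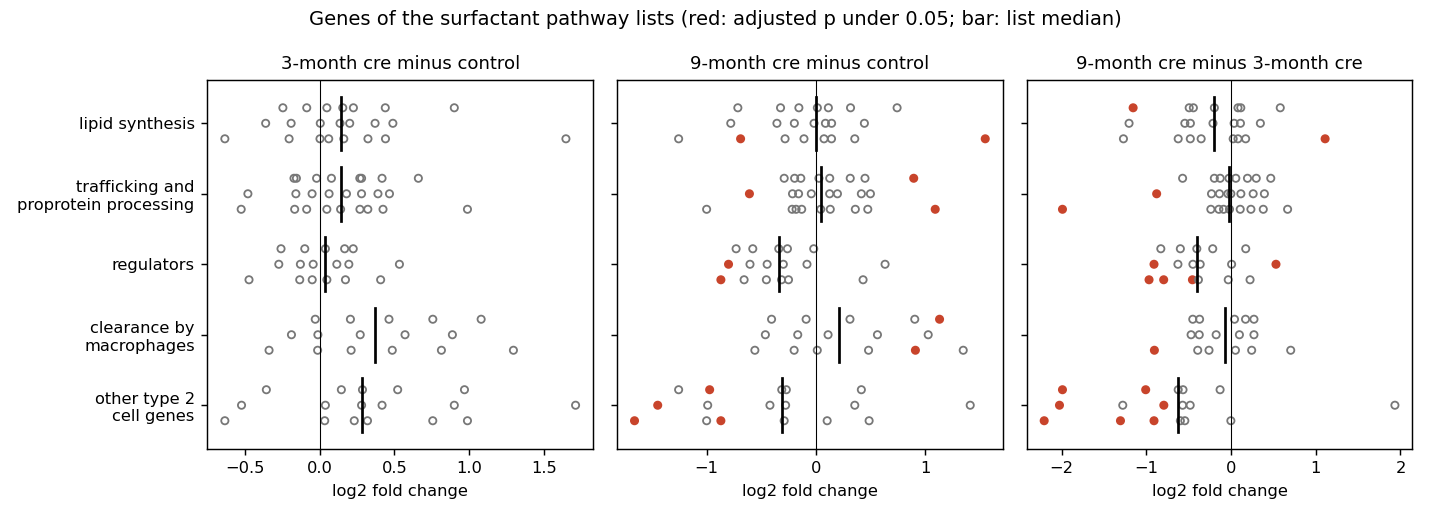
Log2 fold changes (horizontal axes) of the genes of 5 surfactant lists in the 3 comparisons, 1 circle per gene, filled red at an adjusted p under 0.05, with a black bar at the list median. No gene is filled in 3-month cre against control, and 7 of the 17 other type 2 cell genes are filled and negative between the cre groups.

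The calls in these 5 lists, 12 genes in 9-month cre against control and 15 between the cre groups, numbered 0 and 0 with slide as a block and 0 and 6 with sex as a covariate. Leaving out single arrays gave 3 to 15 calls in the first comparison, with 3 or 4 without any 1 control, 5 without replicate 1 of 9-month cre, and 7 without its replicate 3 or without replicate 2 of 3-month cre. In the second it gave 0 to 19, with 0 without replicate 1 or replicate 2 of 3-month cre, 1 without replicate 1 of 9-month cre, 5 without replicate 3 of 3-month cre, and 9 and 7 without control replicates 1 and 2. The share of all genes called in each of these settings was not counted, so a change in the calls cannot be read as particular to these lists. Within slide 2 the differences between the cre groups were -2.03 for Slc34a2, -0.99 for Etv5 and -1.004 for S100g, close to those over both slides.

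Markers of other cell types moved beside these genes. Of 13 epithelial markers 12 passed the filter. Between the cre groups, where 46.9% of all genes were higher in 9-month cre, all 12 were lower there. Their median was -0.42 and 1 was called, Prss8 (-0.83 ± 0.13, adjusted p = 0.0276 in limma), where 3.2% of all genes were called lower. The summed level of all 13 was taken with the 75th percentile of the array as 1. It ranged from 83.8 to 91.9 in the controls and from 88.5 to 112 in 3-month cre. In 9-month cre it was 91.6, 100.1 and 61.0 in replicates 1 to 3, so only replicate 3 was below all controls. Of 10 markers of mature dendritic cells, which also make Lamp3, 0 was called in any comparison in limma, with 3, 2 and 2 at an unadjusted p under 0.05 in 9-month cre against control, 3-month cre against control and between the cre groups. Their median was 0.48 in 9-month cre against control and -0.12 between the cre groups, and their sum was 23.1 to 27.9, 27.8 to 33.4 and 20.9 to 28.2 in control, 3-month and 9-month cre. Alveolar macrophage markers had 3 of 12 called higher in each cre group against control (Ctsk, Mrc1 and Atp6v0d2), with Ctsk at 2.51 ± 0.28 after 3 months (adjusted p = 0.0208) and 1.87 ± 0.28 after 9 months (0.0162), and sums of 118 to 208, 293 to 343 and 218 to 341. All genes were called higher at 0.368% and 3.65% in these comparisons. Against control, 11 of the 12 macrophage markers were higher and 1 lower after 3 months. After 9 months 8 were higher and 4 lower. In 9-month cre, 11 of the 12 macrophage markers were lower than in 3-month cre, with a median of -0.52 and 1 called, Car4 (-0.91 ± 0.19, adjusted p = 0.0402 in limma), beside the falls of Lyz2 and Npc2. Of 9 neutrophil markers 4 rose in 9-month cre against control (Ngp, Camp, Mpo and Lcn2), with Ngp at 5.67 ± 0.85 (adjusted p = 0.0163) and sums of 112 to 221, 208 to 290 and 196 to 462. The control means of Ngp and Mpo were dim, at -6.62 and -4.53. The SD of Ngp in 9-month cre was 1.79, so the size of its change is uncertain. Lcn2 rose in 3-month cre against control (2.12 ± 0.26, adjusted p = 0.0258 in limma). Between the cre groups all 9 neutrophil markers were higher in 9-month cre, with 1 called, Mpo (1.94 ± 0.44, 0.0478), where 1.79% of all genes were called higher. Of 9 club cell and 9 type 1 cell markers, 0 was called in any comparison in limma, with 1, 0 and 1 club cell and 3, 1 and 3 type 1 cell markers at an unadjusted p under 0.05 in the same order of comparisons. The part of these cell types in the levels of the surfactant genes was not tested.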

How the data were processed

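Data of 9 arrays were read from the scanner files, where the processed signal is an intensity per spot from which, per the file headers, Agilent Feature Extraction 10.7.3.1 had subtracted background. The deposited processed values, 1 intensity per probe and array, already normalized by the authors with a method not given in the sources used here, served as an alternative. Of 62976 spots 59305 were not controls, for 56605 probes; irregular spots were left out and spots of a probe averaged. The log2 signal was set relative to the 75th percentile of the array. The 37647 probes well above background on all arrays of at least 1 group were kept. The probe with the highest mean stood for a gene (16843 genes). Groups were fitted together in limma 3.58.1 (R 4.3.3; data.table, in version 1.17.8, read the files) with 6 residual degrees of freedom, two-sided, with Benjamini-Hochberg adjustment over all genes or all probes. The number of arrays limits the precision, and the labels call the replicates biological.

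The 8 genes and the lists were chosen with earlier results of these data known. From each list up to 3 called genes with the largest change were named per comparison, or 2 with the smallest p where none was called, and S100g, Etv5 and Slc34a2 in every comparison; exceptions are named as such. Replicate numbers did not pair the samples: deviations from the group means correlated at -0.24 to 0.045 between arrays of the same number. Alternatives changed the background correction, the scaling, the filter, the probe rule, slide, sex, the replicate block, the groups in the fit and single arrays. The fit was tested on simulated data.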

Additional observations from a re-analysis of the deposited data

Results flagged for a closer look

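For 4 of the 10 probes every 3-month cre lung lay above the mean of the controls and every 9-month cre lung below it. They were the brighter Napsa probe, with a difference between the cre groups of -1.04, the dimmer Napsa probe with -1.44, the dimmer Sftpb probe with -0.79 and the Lamp3 probe with -0.70 on the log2 scale. Both Napsa probes are among them. The share of all probes with this course was not counted, so the count is a description only. The cre groups differ in age as well as in time on tamoxifen, and their difference as a contrast with controls of their own age was not tested. The brighter Sftpb probe did not share this course, with 9-month cre 0.32 above 3-month cre.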

How the results depend on the processing

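Over the 13 alternatives that kept all arrays of a comparison, 0 of the 8 genes was called in each comparison with control. Fits of 1 slide alone did not keep all arrays and are not among the 13. Between the cre groups 0 to 2 genes were called, with 2 under normexp background correction. There was 1 with the mean of all probes of a gene, and 1 with only the 2 groups compared in the fit. The cause of each change was not tested. Of the 10 probes, 4 were called between the cre groups with normexp, and 0 with slide as a block or on slide 2 alone. The pathway lists had 0 calls in both 9-month comparisons with slide as a block, and 0 and 6 with sex as a covariate. For the alternatives here and below, with single arrays left out or not, the share of all genes called was not counted.

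Some directions turned, all for differences without a call. In 9-month cre against control, Sftpa1 was at -0.21 and Sftpc at -0.033 with quantile normalization, -0.26 and -0.011 with the deposited values, and -0.25 and -0.16 with slide as a block, where Sftpb was at -0.18. Abca3 was at 0.025 with epithelial marker scaling and 0.046 with sex as a covariate. In 3-month cre against control, Sftpc, Abca3 and Lpcat1 were at -0.070, -0.043 and -0.012 with quantile normalization, at -0.037, -0.021 and -0.028 with the deposited values, and at -0.14, -0.094 and -0.25 with epithelial marker scaling, where Lamp3 was at -0.0060. With slide as a block, and on slide 1 alone, Sftpb was at -0.17, Sftpc at -0.20 and Lpcat1 at -0.11, and Lpcat1 was at -0.0011 with the percentile taken over spots. Between the cre groups, Sftpb was at -0.0065 with slide as a block and on slide 2 alone and at -0.24 with the mean of its probes, and with epithelial marker scaling Sftpa1 was at 0.091 and Abca3 at 0.12. With that scaling the median of all genes was 0.20 in 9-month cre against control, -0.22 in 3-month cre against control and 0.42 between the cre groups. In the main fit it was 0.024, 0.054 and -0.028. By construction the scaling takes out what the epithelial markers share.

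Leaving out each array in turn gave 0 to 1 called genes in each of the 3 comparisons. The 9-month difference from control ranged from -0.054 to 0.27 for Sftpa1 and from -0.34 to 0.015 for Abca3, the 3-month difference from -0.011 to 0.35 for Abca3 and from -0.16 to 0.20 for Lpcat1, and the difference between the cre groups from -0.0065 to 0.50 for Sftpb. Calls in the pathway lists ranged from 3 to 15, 0 to 4 and 0 to 19. The replicate block, whose numbers do not pair the lungs, left 0 genes called in all 3 comparisons and Napsa at -1.04 between the cre groups. The percentile over spots, the calls in the pathway lists with sex as a covariate or without single arrays, and the slide settings of the single probes were chosen after seeing the data. All 10 probes were well above background on all 9 arrays; the number of arrays limits the precision.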
